A study of Caenorhabditis elegans with 12 samples.

Results

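The aspartyl and cathepsin-type cysteine protease genes of Caenorhabditis elegans were followed across 4 genotypes. They were taken by name, as every protein-coding gene of the deposited count table called asp, cpr, cpl or cpz with a number, which gave 28 of the 46936 genes listed. There were 17 aspartyl protease (asp) genes and 11 cysteine protease genes, made up of 8 of the cathepsin B-like type (cpr), 1 of the cathepsin L type (cpl-1) and 2 of the cathepsin Z type (cpz-1 and cpz-2). The asp-11 gene is a pseudogene in the table, and hrg-7, which has the aspartyl protease domain, has another name, so both lay outside the rule. RNA came from whole animals on NGM plates with OP50 bacteria as food, with 3 libraries per genotype and 12 in all. The genotypes were daf-2lf;skn-1gf (the double mutant), daf-2lf, skn-1gf and wild type, where lf and gf stand for loss and gain of function. The daf-2 gene encodes the insulin/IGF-1 receptor of the worm, and skn-1 a transcription factor related to Nrf proteins that acts in detoxification and stress responses. The series addressed how the transcriptome of daf-2lf worms changes when activated SKN-1 is added. The alleles, the age and stage at harvest, and whether replicates were grown separately are not given in the labels, so p-values measure only the spread between these libraries, which may be technical.

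Aspartyl proteases cut proteins at acidic pH with a pair of aspartate residues, and papain-type cysteine proteases, among them cathepsins B, L and Z, do so with a catalytic cysteine. In C. elegans both classes digest bacterial food in the gut lumen and break down proteins in lysosomes, and several of the genes are known to be transcribed in the intestine. Some have further roles: asp-3 and asp-4 take part in necrotic death of neurons, cpl-1 in yolk processing and embryogenesis, cpz-1 in moulting, and secreted CPR-4 in signalling between irradiated and unirradiated tissue.

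Total counts ranged from 16779245 to 29346039 per library, so that 3 counts equal 0.105 to 0.192 CPM. CPM here are counts divided by the library total, scaled by edgeR's TMM factors, per 1e+06. A standard SKN-1 target, gst-4, averaged 1427 ± 49.99 CPM in the double mutant, 47.3 ± 17.3 in daf-2lf, 1235 ± 168 in skn-1gf and 26.4 ± 1.86 in wild type (SD, with n = 3 throughout). The DAF-16 target sod-3 averaged 12.7 ± 1.07 CPM in the double mutant, 16.4 ± 4.27 in daf-2lf, 0.482 ± 0.156 in skn-1gf and 1.33 ± 0.275 in wild type. Transcript levels of the mutated genes do not check alleles of unknown nature. The skn-1 gene averaged 220.2 CPM in the double mutant, 172 in daf-2lf, 149 in skn-1gf and 118 in wild type, and daf-2 averaged 127 in the double mutant, 92.7 in daf-2lf, 91.9 in skn-1gf and 67.5 in wild type. The 8 intestinal markers summed to 3151 to 3302 CPM in the double mutant, 2976 to 3953 in daf-2lf, 3627 to 4896 in skn-1gf and 1654 to 1836 in wild type. Of the 6 sperm markers, msp-142 was at 0 in both genotypes with daf-2lf and gsp-3 at 0 in daf-2lf, and the list summed to 21.8 to 25.5 CPM in the double mutant, 12.6 to 18.5 in daf-2lf, 75.3 to 211 in skn-1gf and 324 to 361 in wild type. The daf-2lf replicate 1 library stood apart: its log2 deviation from the other daf-2lf libraries ran with gene length (Spearman -0.576 across genes, which are not independent replicates). The tested protease genes are 993 to 1564 bases long and lay above the other daf-2lf libraries there by a median log2 of 0.59, so values without it are given beside the main results that use daf-2lf.

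The protease genes lay mostly on chromosome V, which carries 13 of the 17 aspartyl and 9 of the 11 cysteine genes (WBcel235 coordinates as deposited). The asp-6 gene (chromosome V, 8267511 to 8268937, minus strand), asp-12 (chromosome V, 8270643 to 8272056, plus strand) and asp-5 (chromosome V, 8272385 to 8274044, plus strand) form a cluster with gaps of 1705 and 328 bases. A second cluster holds asp-17, asp-16, asp-15 and asp-1 (chromosome V, 19049562 to 19050752, minus strand, a gene of 1 exon), and cpr-5 and cpr-8 are 565 bases apart on opposite strands. The asp-14 gene (chromosome X, 6444185 to 6446664, minus strand, 7 exons), asp-3, asp-4 and cpr-6 (chromosome X, 6607207 to 6609045, plus strand) are on X, cpz-1 (chromosome I, 2686640 to 2689429, minus strand) is on I and asp-9 is on IV. Where another annotated gene overlaps one of them, it held at most 1.15% as many counts as the protease gene (inx-10 over asp-2). How reads shared by similar family members were counted, and whether strand was used, are not given in the sources used here, so the split between neighbours of like sequence is uncertain.

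Of the 28 genes, 21 had at least 10 counts in every library. The low-count filter kept 23, with cpr-2 and asp-9 passing only through the genotypes with daf-2lf, and left out asp-7, asp-16, asp-18, asp-15 and asp-19. Per kilobase of gene length, asp-1, which encodes an intestinal aspartyl protease, was the highest member in all genotypes and ranked 2nd of 19994 protein-coding genes over the 12 libraries. Its level was 6465 CPM per kilobase in the double mutant, 7294 in daf-2lf, 5071 in skn-1gf and 2777 in wild type. Next over all libraries came asp-6 at 2264, asp-3 at 2143, asp-14 at 1427 and cpl-1 at 1196 CPM per kilobase. The order below asp-1 differed between genotypes. In skn-1gf asp-14 was 2nd of the 28 genes and cpl-1 was 7th, whereas in wild type cpl-1 was 2nd and asp-14 was 15th. Of the 21 genes with at least 10 counts in every library, 1 had its highest mean in the double mutant, 12 in daf-2lf, 2 in skn-1gf and 6 in wild type.

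**Figure D1:**
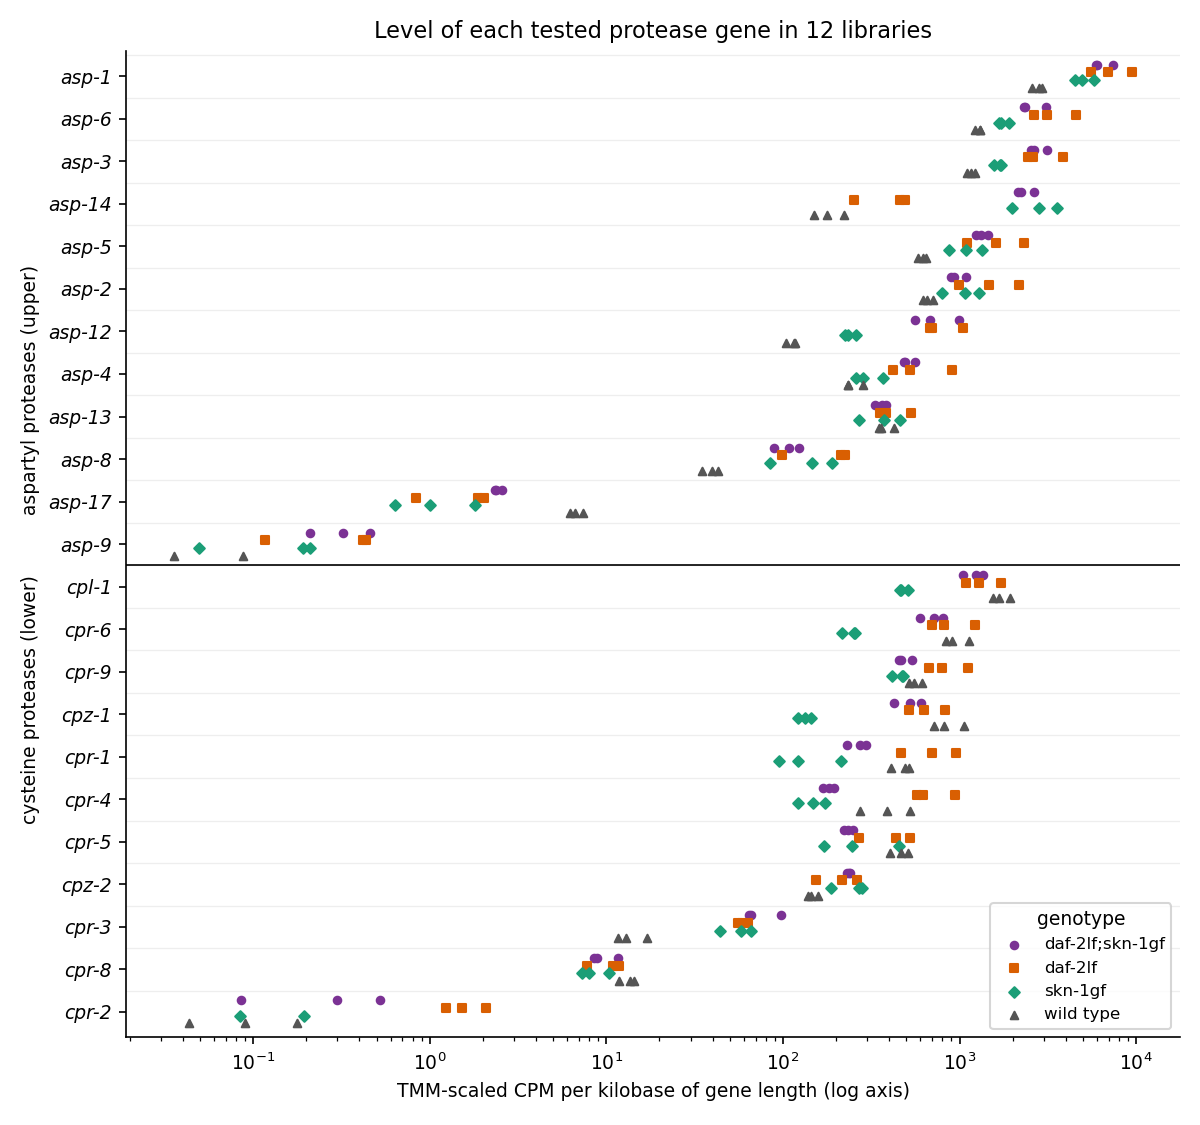
Level of each tested protease gene in each of the 12 libraries, in TMM-scaled CPM per kilobase of gene length on a log axis, with aspartyl genes in the upper part and cysteine genes in the lower part; a library with 0 counts has no point. Most aspartyl genes have their wild-type triangles at the left, while cpl-1, cpr-6 and cpz-1 have their skn-1gf diamonds at the left.

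Together the 28 genes held 2.77 ± 0.292% of all counts in the double mutant, 2.97 ± 0.441% in daf-2lf, 2.08 ± 0.123% in skn-1gf and 1.73 ± 0.0537% in wild type. The aspartyl genes held 2.29 ± 0.258% in the double mutant, 2.30 ± 0.377% in daf-2lf, 1.81 ± 0.151% in skn-1gf and 1.02 ± 0.0420% in wild type, and all 9 mutant libraries lay above the wild-type ones. The cysteine genes held 0.474 ± 0.0384% in the double mutant, 0.665 ± 0.0727% in daf-2lf, 0.277 ± 0.0313% in skn-1gf and 0.712 ± 0.0195% in wild type, with the skn-1gf libraries lowest. Aspartyl counts were therefore 4.83 ± 0.261 times the cysteine counts in the double mutant, 3.46 ± 0.324 times in daf-2lf, 6.62 ± 1.24 times in skn-1gf and 1.43 ± 0.0549 times in wild type. No 95% Wilson interval of a share was wider than 0.016 percentage points, which covers counting error only. The differences between these shares were not tested; between a single pair of genotypes, with 3 libraries each, a two-sided exact permutation test could not reach 0.05.

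**Figure D2:**
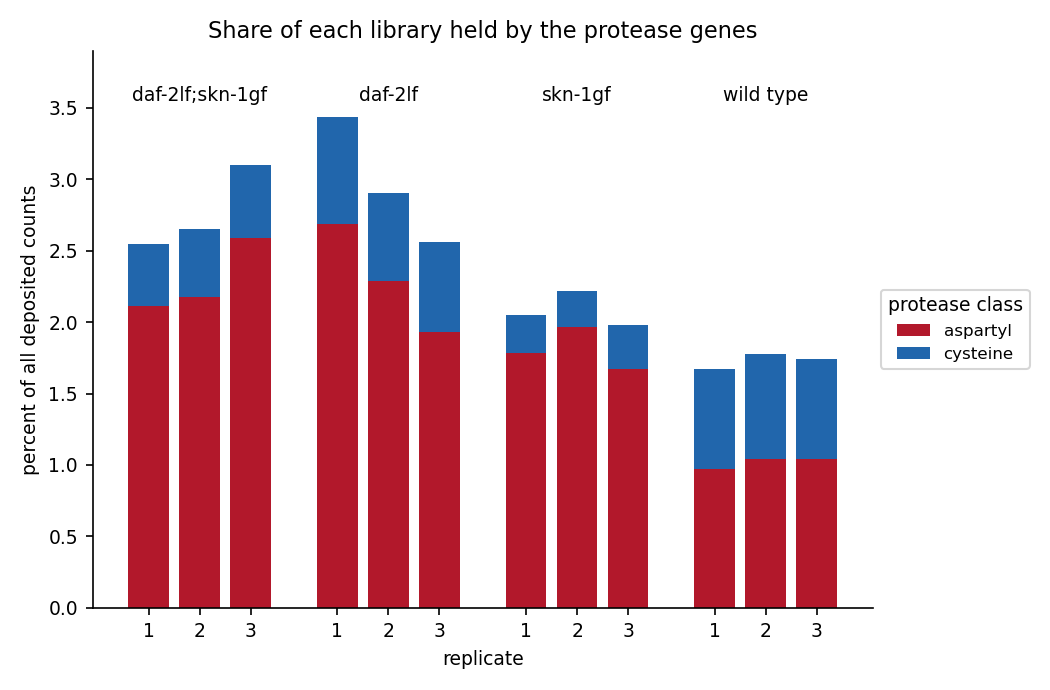
Percent of all deposited counts in aspartyl and cysteine protease genes, as stacked bars for each of the 12 libraries by genotype and replicate. The total is lowest in wild type, and the cysteine part is smallest in skn-1gf.

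The first comparison, the double mutant against daf-2lf, is the one the series was designed for. Of the 23 tested genes, 1 was higher and 3 were lower at an edgeR adjusted p under 0.05, where 1.62% of all 15575 tested genes were called (1.01% higher and 0.616% lower). The aspartyl gene asp-14 rose and the cysteine genes cpr-4, cpr-1 and cpr-9 fell, and no other aspartyl gene was called. With daf-2lf replicate 1 left out, the changes of asp-14, cpr-4 and cpr-9 were 2.72, -1.72 and -0.60, all still called. Replicates of both genotypes did not overlap for 3 higher and 4 lower of the 21 genes with at least 10 counts in every library. Over all tested genes the share was 23.7% (11.5% higher and 12.2% lower). In these whole-animal libraries, fewer cells of a type and less RNA per cell cannot be told apart.

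The asp-14 gene had 2584, 2691 and 3185 CPM in the double mutant, against 589, 552 and 304 CPM in daf-2lf. The lowest double mutant library was far above the highest daf-2lf library. The gene was 5.85-fold higher (log2 2.55, SE 0.28, edgeR adjusted p = 0.00032). It was 55th by fold among the 157 genes called higher, and it accounted for 10.1% ± 0.0737 of the counts of the protease genes in the double mutant and 1.51% ± 0.334 in daf-2lf.

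The cpr-4 gene encodes a secreted cathepsin B-like protease (chromosome V, 6614674 to 6615851, plus strand). It had 205, 189 and 218 CPM in the double mutant, against 1067, 645 and 701 CPM in daf-2lf. All double mutant libraries lay below all daf-2lf libraries, with a 3.94-fold lower level (log2 -1.98, SE 0.25, edgeR adjusted p = 0.00118). The cpr-1 gene, a gut cysteine protease gene (chromosome V, 11975551 to 11976756, plus strand), had 317, 296 and 249.7 CPM in the double mutant, against 1036, 505 and 756 in daf-2lf. Its daf-2lf libraries were widely spread but all above the double mutant (log2 -1.41, SE 0.30, edgeR adjusted p = 0.038). Without daf-2lf replicate 1, which was the highest, the log2 change was -1.13 (adjusted p = 0.112) and the call was lost. Nearby cpr-9 (chromosome V, 12003053 to 12004584, plus strand) had 642, 625 and 745 CPM in the double mutant, against 1545, 1097 and 931 in daf-2lf (log2 -0.83, SE 0.18, edgeR adjusted p = 0.037). The groups were separate, but the call held in only 9 of 20 alternative settings, and that of cpr-1 in 10 of 20, whereas asp-14 and cpr-4 were called in all 20. Leaving out any 1 wild-type or double mutant library, or skn-1gf replicate 1, ended both weaker calls (cpr-1 -1.49 to -1.32, adjusted p = 0.0565 to 0.189 and cpr-9 -0.91 to -0.78, adjusted p = 0.0564 to 0.19). The cpr-9 call was also lost without skn-1gf replicate 2 or daf-2lf replicate 2 (-0.88 to -0.83, adjusted p = 0.0554 to 0.0584), and that of cpr-1 without daf-2lf replicate 3, at -1.42 (adjusted p = 0.051). Both were lost with only the groups compared, and that of cpr-9 also with a replicate block.

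The other 19 tested genes were not called, and their intervals still allow modest differences. The cpr-2 gene had 7, 2 and 16 counts in the double mutant against 44, 22 and 29 counts in daf-2lf. It passed the filter through its high libraries, so no test of it is read. The abundant asp-1 had 7175, 7102 and 8821 CPM in the double mutant, against 11269, 8209.8 and 6582 in daf-2lf, with a log2 change of -0.17 and a 95% interval of -0.59 to 0.24. For asp-3 the interval was -0.47 to 0.28, for asp-12 -0.58 to 0.35 and for cpl-1 -0.55 to 0.20. No direction is drawn from these values, since asp-1, asp-3, asp-4, cpl-1 and cpz-2 changed sign when daf-2lf replicate 1 was left out. Where 1.62% of all tested genes were called, edgeR called 0 of the 44 genes on the cell type marker lists, a count near that share. At an unadjusted p under 0.05, 1 of them was higher and 3 were lower. DESeq2 called 0 of them and limma-voom 10, all higher, among them 4 of 4 body wall muscle and 4 of 5 germline markers, and their part was not tested.

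The effect of skn-1gf was then read in the other background, as skn-1gf against wild type. Whether the single and double mutants carry the same skn-1 allele is not given in the labels. Here 9 of the 23 tested genes were higher and 7 were lower, where 43.6% of all tested genes were called (22.6% higher and 21% lower). The replicates did not overlap for 10 higher and 8 lower genes, against 67.4% of all tested genes (34.2% higher and 33.2% lower). By class, 7 of the 12 tested aspartyl genes rose and 1 fell, whereas 2 of the 11 cysteine genes rose and 6 fell. Median log2 changes were 0.75 for the aspartyl and -0.67 for the cysteine genes, against 0.03 over all tested genes. Among the 21 genes with at least 10 counts in every library, without asp-9 and cpr-2, these medians were 0.66 and -1.05. With scaling by relative log expression the median over all genes was -0.13, the calls over all genes were 40.4% higher instead of 51.8%, and the protease calls were 7 higher and 8 lower.

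The largest rise was again that of asp-14, with 3419.6, 4271 and 2392 CPM in skn-1gf, against 180.4, 268 and 215 CPM in wild type. Every skn-1gf library was above every wild-type library, by 15.2-fold on average (log2 3.93, SE 0.30, edgeR adjusted p = 1.82e-06). It ranked 173rd by fold among the 3519 genes called higher. In skn-1gf this gene alone made up 15.8% ± 2.87 of the protease counts, and in wild type 1.36% ± 0.206.

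Among the other aspartyl genes, asp-8 (chromosome V, 3024549 to 3027931, plus strand) had 178, 230.1 and 103 CPM in skn-1gf, against 42.3, 52.6 and 48.6 CPM in wild type (log2 1.83, SE 0.33, edgeR adjusted p = 0.00102). The skn-1gf libraries were spread but separate from wild type. The asp-12 gene had 278, 290.3 and 322 CPM in skn-1gf, against 142.5, 128 and 144 in wild type (log2 1.10, SE 0.22, edgeR adjusted p = 0.0019). The intestinal asp-1 had 5395, 6833 and 5889.7 CPM in skn-1gf, against 3081, 3477 and 3362 in wild type (log2 0.87, SE 0.19, edgeR adjusted p = 0.00364). These were 2.15-fold and 1.83-fold higher, with separate groups. Smaller rises were called for asp-5 (log2 0.84), asp-2 (0.66) and asp-3 (0.51), a gene of necrotic cell death. The asp-2 call held in 7 of 20 alternatives. It was lost without any 1 wild-type or double mutant library, skn-1gf replicate 1 or 2, or daf-2lf replicate 2 (0.49 to 0.72, adjusted p = 0.0579 to 0.189). The asp-3 call held in 12 of 20 and was lost without any 1 wild-type library or skn-1gf replicate 1 or 2 (0.47 to 0.55, adjusted p = 0.0544 to 0.0992), and that of asp-5 was lost without skn-1gf replicate 2, at 0.67 (adjusted p = 0.0608). With relative log expression scaling, without a filter and by DESeq2 the calls of asp-2 and asp-3 were lost, and with a replicate block that of asp-2. The other necrosis gene, asp-4, had a change of 0.28 (SE 0.24, edgeR adjusted p = 0.375) and was not called, nor were asp-6 at 0.47 (SE 0.19, edgeR adjusted p = 0.065) and asp-13.

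The aspartyl gene that fell was asp-17, known in worms as a target of the transcription factor ZIP-10 in the cold. It was lowly expressed, with 1.21, 0.766 and 2.20 CPM in skn-1gf, against 8.05, 8.96 and 7.49 CPM in wild type. All skn-1gf libraries were below wild type (log2 -2.51, SE 0.36, edgeR adjusted p = 0.000203). Another gene known to be under ZIP-10, the cysteine protease gene cpr-3 (chromosome V, 15296834 to 15298700, minus strand), moved the other way. It had 79.1, 90.2 and 60.2 CPM in skn-1gf, against 17.6, 15.9 and 23.4 CPM in wild type, and was 4.03-fold higher (log2 2.01, SE 0.22, edgeR adjusted p = 2.75e-05). The other cysteine gene that rose was cpz-2 (log2 0.74).

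The falls in the cysteine class included cpl-1 and cpr-6, its highest members per kilobase. The cathepsin Z gene cpz-1, which acts in moulting, had 121, 144 and 133 CPM in skn-1gf, against 808, 1050.3 and 710.2 CPM in wild type. It was 6.46-fold lower with narrow spread in skn-1gf (log2 -2.69, SE 0.22, edgeR adjusted p = 2.71e-06). The cathepsin B-like gene cpr-6 had 319, 322 and 273 CPM in skn-1gf, against 1146, 1434 and 1063 in wild type (log2 -1.995, SE 0.21, edgeR adjusted p = 2.36e-05). Cathepsin L, cpl-1, which acts in yolk processing (chromosome V, 16592572 to 16595346, minus strand), had 549, 555 and 608 CPM in skn-1gf, against 1999, 2303 and 1852 in wild type (log2 -1.85, SE 0.18, edgeR adjusted p = 1.06e-05). These 3 genes were separate from wild type in all libraries and were called in 20 of 20 alternatives. The gut gene cpr-1 had 131, 103 and 231 CPM in skn-1gf, against 530.3, 438 and 560.3 in wild type (log2 -1.72, SE 0.30, edgeR adjusted p = 0.000964), and the secreted cpr-4 had 137, 167 and 195 CPM in skn-1gf, against 437, 308 and 594 in wild type (log2 -1.42, SE 0.25, edgeR adjusted p = 0.000909). A small fall of cpr-8 (log2 -0.63) was called in 16 of 20 alternatives and lost without wild-type replicate 2 or 3 or skn-1gf replicate 1 or 2 (-0.61 to -0.52, adjusted p = 0.0773 to 0.109).

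Markers of several tissues moved in this comparison as well. Of the 44 marker genes 7 were higher, 3 of 8 intestinal and 4 of 5 neuronal ones, and 17 were lower: 4 of 5 germline, 5 of 5 oocyte, 5 of 6 sperm and 3 of 5 epidermal markers. The shares over all tested genes were 22.6% higher and 21% lower. The germline markers summed to 373 to 1146 CPM in skn-1gf and 1553 to 1667 CPM in wild type, and the epidermal ones to 466 to 639 CPM in skn-1gf and 1501 to 2162 CPM in wild type. Their part in the changes of the protease genes was not tested.

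**Figure D3:**
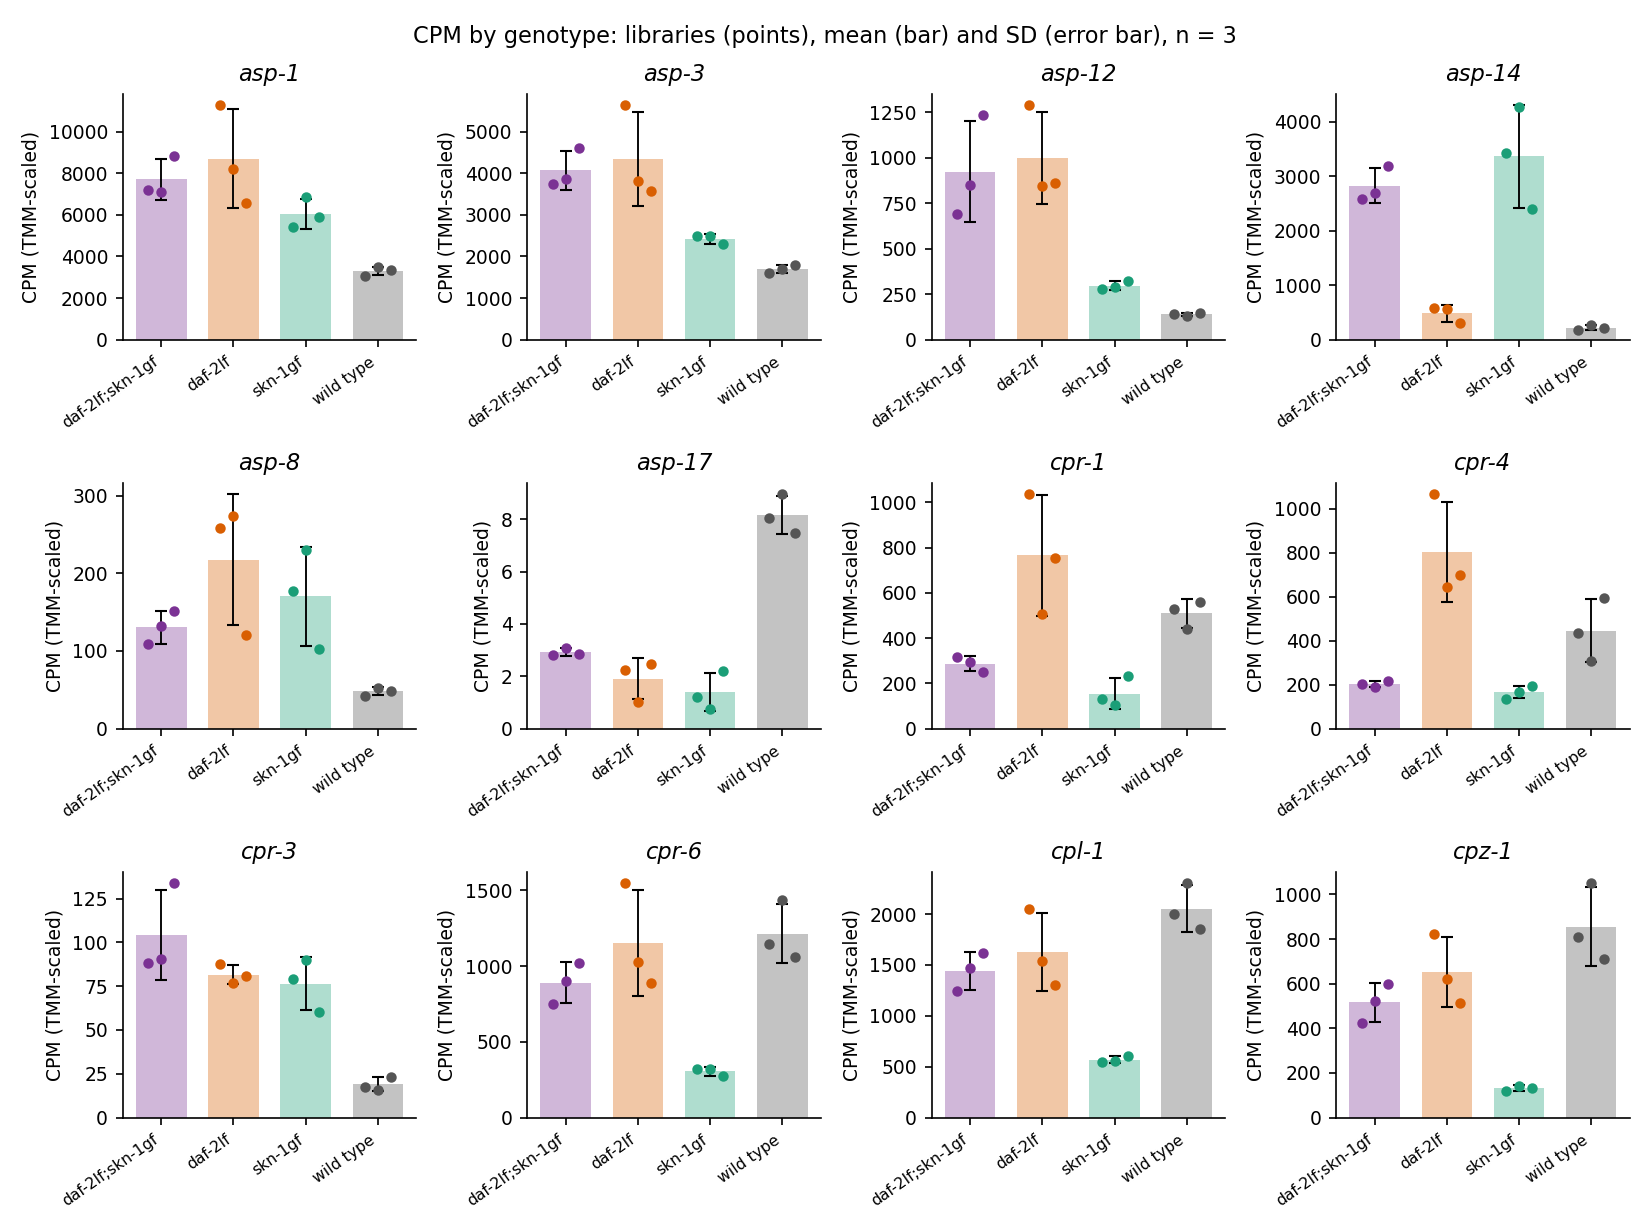
TMM-scaled CPM of 12 protease genes by genotype, with the libraries as points, the mean of 3 as a bar from 0 and the SD as an error bar. In asp-14 both genotypes with skn-1gf are high, in asp-12 both genotypes with daf-2lf are high, and in cpr-6, cpl-1 and cpz-1 skn-1gf is lowest.

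Set side by side, the 2 backgrounds gave different changes for many of the genes. Called in both in the same direction were 1 rise (asp-14) and 2 falls (cpr-1 and cpr-4), where 0.822% of all tested genes were called higher in both and 0.289% lower in both. The difference itself was tested as an interaction, the skn-1gf effect in daf-2lf minus that in wild type, and 12 of the 23 genes were called, 4 of them positive and 8 negative, where 27.7% of all tested genes were called (9.91% positive and 17.7% negative). For asp-14 the effect was smaller in daf-2lf, with a difference of -1.38 (SE 0.37, edgeR adjusted p = 0.0188). It was no longer called without wild-type replicate 1, at -1.25 (adjusted p = 0.0536), and without skn-1gf replicate 2, at -1.17 (adjusted p = 0.05004). For cpr-1 and cpr-4 the interactions were 0.30 (SE 0.42, edgeR adjusted p = 0.614) and -0.55 (SE 0.35, edgeR adjusted p = 0.249), so their falls were not shown to differ between backgrounds. The other 3 marked falls of the cysteine class did differ. The changes of cpz-1, cpl-1 and cpr-6 were -0.34, -0.17 and -0.37 in daf-2lf, none of them called, and -2.69, -1.85 and -1.995 in wild type. Interactions were 2.35 (SE 0.29, edgeR adjusted p = 0.000201) for cpz-1, 1.67 (SE 0.25, edgeR adjusted p = 0.000591) for cpl-1 and 1.62 (SE 0.29, edgeR adjusted p = 0.00219) for cpr-6. With relative log expression scaling the median interaction over all genes was 0.11 instead of -0.05, and 48.3% instead of 35.8% of the calls over all genes were positive. Without daf-2lf replicate 1 the interactions of asp-14, cpz-1, cpl-1 and cpr-6 were -1.11, 2.64, 1.961 and 1.98, all still called. Of the 44 marker genes 10 had positive interactions, namely 5 of 5 oocyte, 2 of 5 epidermal, 1 of 5 germline, 1 of 6 sperm and 1 of 4 body wall muscle markers, and 4 had negative ones, namely 2 of 8 intestinal and 2 of 5 neuronal markers. Their part in these values was not tested.

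**Figure D4:**
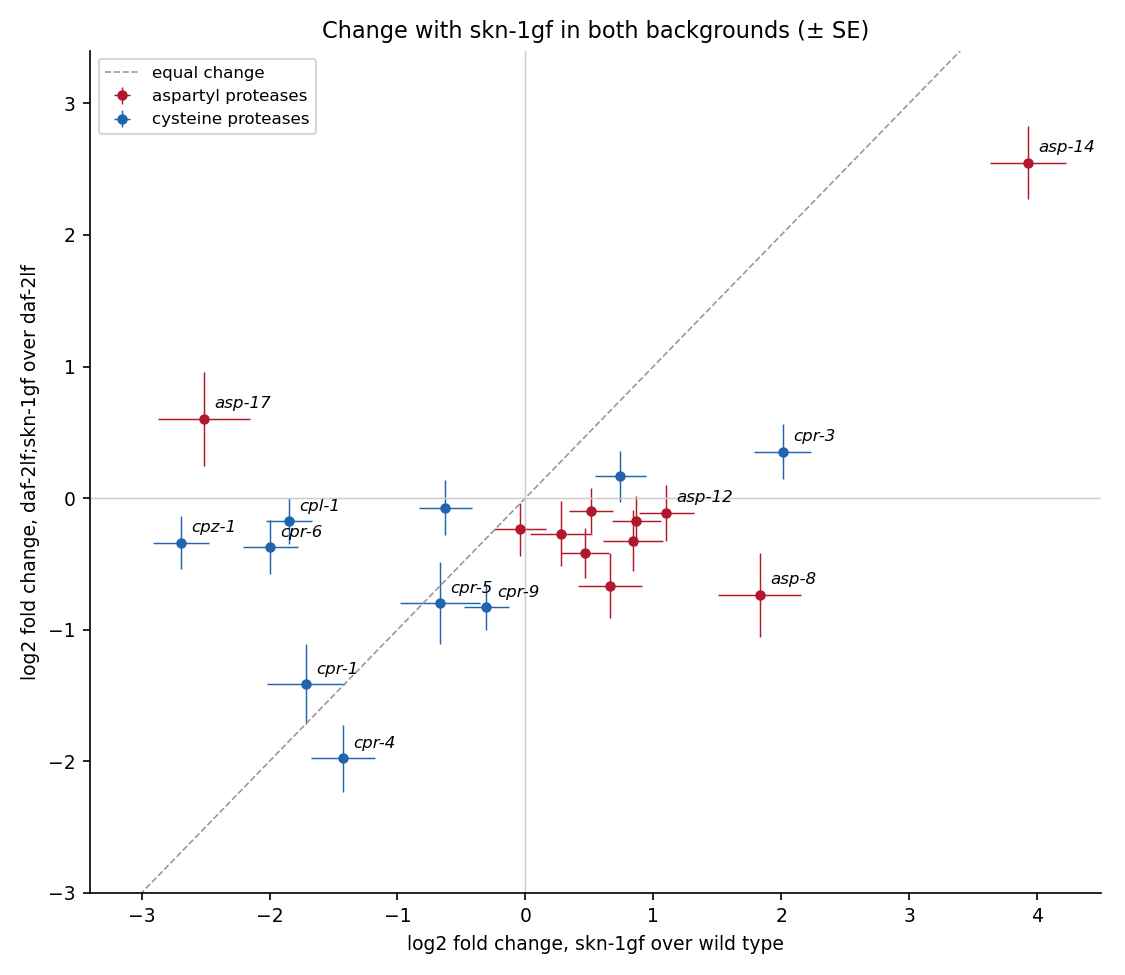
Log2 fold change with skn-1gf in the daf-2lf background (vertical axis) against that in the wild-type background (horizontal axis), with standard errors, for the 21 protease genes with at least 10 counts in every library; the dashed line marks equal change. The gene asp-14 lies far to the upper right, cpr-1 and cpr-4 lie near the line at the lower left, and cpz-1, cpl-1 and cpr-6 lie near 0 on the vertical axis.

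The effect of daf-2lf was measured against wild type without skn-1gf, and against skn-1gf in the double mutant. In daf-2lf against wild type, 15 of the 23 tested genes were called higher and 1 lower. Because cpr-2 and asp-9 entered the test only through the genotypes with daf-2lf, where they are high, they had to differ and are left out of what follows. Of the other 21 genes 13 were higher and 1 was lower, where 52.3% of all tested genes were called (29.5% higher and 22.9% lower). Without overlap between the groups were 12 higher and 2 lower of the 21 genes, against 61.2% of all tested genes (31.9% higher and 29.3% lower). Of the 11 aspartyl genes among them 9 rose, 1 fell and asp-13 was not called, and of the 10 cysteine genes 4 rose. Median log2 changes were 1.35 for the aspartyl and 0.22 for the cysteine genes, against 0.15 over all tested genes. With relative log expression scaling the median over all genes was -0.03, the calls over all genes were 45.2% higher instead of 56.3%, and the calls among the 21 protease genes were 11 higher and 4 lower. They were also 11 higher and 4 lower without daf-2lf replicate 1.

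The clearest rise among abundant genes was asp-12, with 1288, 845 and 863 CPM in daf-2lf, against 142.5, 128 and 144 CPM in wild type. The groups were far apart, with a 7.22-fold higher level (log2 2.85, SE 0.23, edgeR adjusted p = 1.02e-06). Its cluster neighbours rose less: asp-6 had 5803, 3967 and 3385 CPM in daf-2lf, against 1551, 1662 and 1663 in wild type (log2 1.43, SE 0.19, edgeR adjusted p = 6.68e-05), and asp-5 was 2.72-fold higher. The intestinal asp-1 was 2.63-fold higher, at 8687 ± 2379 CPM in daf-2lf against 3307 ± 204 CPM in wild type (log2 1.39, SE 0.19, edgeR adjusted p = 8.07e-05). The necrosis genes rose by similar amounts: asp-3 had 5635, 3824 and 3567 CPM in daf-2lf, against 1606, 1697 and 1794 in wild type (log2 1.35, SE 0.17, edgeR adjusted p = 4.35e-05), and asp-4 had 1321, 763 and 615 CPM in daf-2lf, against 342, 413 and 342 in wild type (log2 1.30, SE 0.25, edgeR adjusted p = 0.000917). In each of these genes daf-2lf replicate 1 was the highest library, and the lowest daf-2lf library still lay above all wild-type ones. Without replicate 1 the log2 changes were 2.52 for asp-12, 1.07 for asp-6, 1.04 for asp-5, 1.06 for asp-1, 1.02 for asp-3 and 0.81 for asp-4, all called.

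The asp-8 gene had 259, 273 and 120.3 CPM in daf-2lf, against 42.3, 52.6 and 48.6 CPM in wild type (log2 2.18, SE 0.33, edgeR adjusted p = 0.000167). The cpr-3 gene was 4.30-fold higher, with 87.4, 76.5 and 80.7 CPM in daf-2lf, against 17.6, 15.9 and 23.4 CPM in wild type (log2 2.10, SE 0.22, edgeR adjusted p = 8.27e-06). The asp-14 gene was 2.18-fold higher, at 482 ± 155 CPM in daf-2lf, against 221 ± 44.0 CPM in wild type (log2 1.12, SE 0.27, edgeR adjusted p = 0.00386). Fitted without daf-2lf replicate 1, the changes of asp-8, cpr-3 and asp-14 were 1.94, 1.94 and 0.85, all called. The sole fall called in the edgeR fit with all libraries was asp-17, with 2.26, 1.02 and 2.47 CPM in daf-2lf, against 8.05, 8.96 and 7.49 CPM in wild type (log2 -2.08, SE 0.35, edgeR adjusted p = 0.000383). Without daf-2lf replicate 1 its change was -2.32, still called.

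The barely expressed cpr-2 and asp-9 are given as counts only, since the filter kept them through the genotypes where they are high. The cpr-2 gene had 44, 22 and 29 counts in daf-2lf, against 5, 2 and 1 counts in wild type. For asp-9 there were 3, 9 and 10 counts in daf-2lf and 3, 0 and 1 counts in wild type. Among genes below the filter, asp-16 had 1, 0 and 4 counts in the double mutant, 8, 2 and 2 counts in daf-2lf and 0 in the 6 libraries without daf-2lf, where 0 counts allow up to 0.192 CPM. The asp-7 gene, 353 bases from asp-8, had 52 counts in all, asp-18 had 3, asp-15 had 2 and asp-19 had 0.

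In the cysteine class the daf-2lf values were less firm. The cpr-4 gene had 1067, 645 and 701 CPM in daf-2lf, against 437, 308 and 594 in wild type (log2 0.85, SE 0.25, edgeR adjusted p = 0.0123). Without daf-2lf replicate 1 its change was 0.49 (adjusted p = 0.0859), and without wild-type replicate 2 0.64 (adjusted p = 0.0517). Its call was also lost with only the groups compared. The change of cpr-9 was 0.62 (SE 0.18, edgeR adjusted p = 0.0107), and without daf-2lf replicate 1 it was 0.28 (adjusted p = 0.0587). The cpr-9 call was also lost with relative log expression scaling, by DESeq2 and with only the groups compared. The cpz-2 change was 0.51 (SE 0.20, edgeR adjusted p = 0.043) with overlapping groups and was called in 6 of 20 alternatives. It was lost without any 1 wild-type or double mutant library, skn-1gf replicate 1 or 2, or daf-2lf replicate 2 or 3 (0.33 to 0.57, adjusted p = 0.0558 to 0.182). It was also lost with relative log expression scaling, without a filter, by DESeq2 and with only the groups compared. The cpr-8 change was -0.38 (SE 0.21, edgeR adjusted p = 0.14) with separate groups, and was not called. It was called lower with relative log expression scaling, by DESeq2 and by limma-voom. The edgeR fit with all libraries did not call cpl-1, cpz-1 or cpr-6 (-0.33, -0.39 and -0.07). With relative log expression scaling, without a filter, by DESeq2 and by limma-voom, cpl-1 and cpz-1 were called lower, and cpz-1 also with the length trend removed. Without daf-2lf replicate 1 all 3 were called lower, cpl-1 at -0.64 (adjusted p = 0.00201), cpz-1 at -0.70 (adjusted p = 0.00642) and cpr-6 at -0.45 (adjusted p = 0.0256). Among the 11 aspartyl genes the number of calls was 10 in each of the 12 fits that left out 1 library.

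Of the tissue markers in daf-2lf against wild type, 5 of 8 intestinal, 5 of 5 neuronal and 3 of 5 epidermal genes were higher, and all 5 germline, 5 oocyte and 6 sperm genes and 2 of 5 epidermal ones were lower. Among the sperm genes, msp-142 and gsp-3 had 0 counts in daf-2lf and passed the filter only through other genotypes, so their calls are not read. The shares over all tested genes were 29.5% higher and 22.9% lower. Germline markers summed to 266 to 530 CPM in daf-2lf and 1553 to 1667 CPM in wild type. The part of these shifts in the protease values was not tested.

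With skn-1gf present on both sides, in the double mutant against skn-1gf, 9 of the 23 tested genes were higher and 0 lower by edgeR, where 31.7% of all tested genes were called (13.4% higher and 18.4% lower). At an unadjusted p under 0.05 still 0 were lower, and limma-voom called 1 lower and DESeq2 0. The groups did not overlap for 10 higher and 0 lower of the 21 genes with at least 10 counts in every library, against 56.3% of all tested genes (26.2% higher and 30.2% lower). The largest called rises were those of the cysteine genes cpz-1, cpr-6 and cpl-1 and of the aspartyl gene asp-12. The cysteine genes cpr-4 and cpr-8, also called lower in skn-1gf against wild type, changed by 0.30 and 0.17 here and were not called. The cpz-1 gene had 424, 524 and 599.8 CPM in the double mutant, against 121, 144 and 133 CPM in skn-1gf (log2 1.961, SE 0.21, edgeR adjusted p = 1.31e-05). For cpr-6 the levels were 751, 903 and 1019 CPM in the double mutant, against 319, 322 and 273 CPM in skn-1gf (log2 1.55, SE 0.21, edgeR adjusted p = 9.62e-05). The cpl-1 gene had 1248, 1466 and 1618 CPM in the double mutant, against 549, 555 and 608 CPM in skn-1gf (log2 1.34, SE 0.18, edgeR adjusted p = 6.80e-05). In all 3 genes the double mutant libraries lay above every skn-1gf library. The asp-12 gene was 3.11-fold higher, at 692, 848 and 1232 CPM in the double mutant, against 278, 290.3 and 322 in skn-1gf (log2 1.64, SE 0.22, edgeR adjusted p = 8.25e-05).

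Smaller rises, of asp-17 (log2 1.03), cpr-1 (0.89), asp-4 (0.75), asp-3 (0.75) and asp-6 (0.55), were called as well. The calls of asp-6, asp-17, cpr-1 and asp-4 held in 8, 10, 12 and 15 of 20 alternatives, and each was lost without any 1 double mutant library or skn-1gf replicate 1 (log2 0.40 to 1.06, adjusted p = 0.0563 to 0.189). Without wild-type replicate 1 or 3 or skn-1gf replicate 2 the calls of asp-6, asp-17 and cpr-1 were lost (0.55 to 1.04, adjusted p = 0.0506 to 0.159), without wild-type replicate 2 those of asp-6 and asp-17 (0.55 to 1.03, adjusted p = 0.0618 to 0.0638), and without skn-1gf replicate 3 those of asp-6 and asp-4 (0.53 to 0.64, adjusted p = 0.0935 to 0.106). The asp-6 call was also lost without daf-2lf replicate 2, at 0.55 (adjusted p = 0.0503), and with relative log expression scaling or a replicate block. Of the tissue markers in this comparison, 6 of 6 sperm genes, 1 of 5 germline, 1 of 5 epidermal and 1 of 8 intestinal genes were lower, and 2 of 4 body wall muscle, 2 of 5 epidermal, 1 of 3 coelomocyte, 1 of 5 neuronal and 1 of 8 intestinal genes were higher, and their part was not tested. Among the sperm genes, msp-142 had 0 counts in the double mutant and passed the filter only through the genotypes without daf-2lf, so its call is not read. The shares over all tested genes were 13.4% higher and 18.4% lower. The asp-14 gene showed a change of -0.25 (SE 0.26, edgeR adjusted p = 0.514) with overlapping groups, and asp-8 one of -0.38 (SE 0.32, edgeR adjusted p = 0.404). For asp-8 both single mutants were higher than wild type and the double mutant had 108, 132 and 151 CPM, an interaction of -2.57 (SE 0.46, edgeR adjusted p = 0.00197). Similarly cpr-3 had 88.1, 90.6 and 134 CPM in the double mutant, near the levels of either single mutant, with an interaction of -1.66 (SE 0.30, edgeR adjusted p = 0.00222). The largest positive interaction was that of asp-17, at 3.12 (SE 0.50, edgeR adjusted p = 0.0011). It had 2.82, 3.09 and 2.86 CPM in the double mutant, with all 3 libraries above those of both single mutants (against daf-2lf log2 0.60, not called) and below the 8.16 ± 0.743 CPM of wild type.

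**Figure D5:**
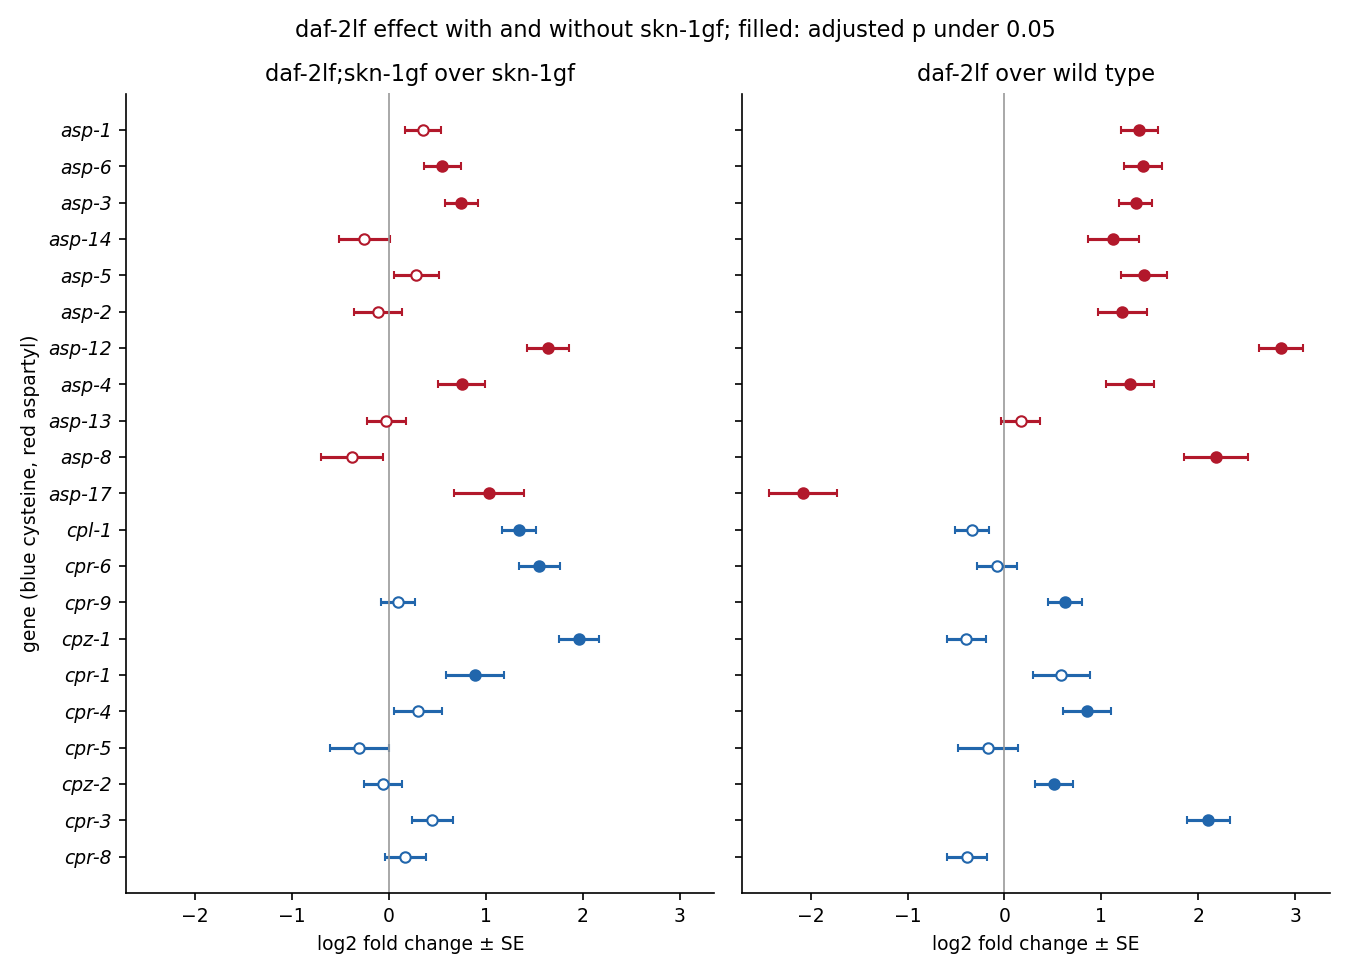
Log2 fold change with its standard error for the daf-2lf effect in the double mutant over skn-1gf (left) and in daf-2lf over wild type (right), on a common axis, for 21 protease genes; filled points have an edgeR adjusted p under 0.05. On the right nearly all aspartyl genes lie above 0, and on the left cpz-1, cpr-6 and cpl-1 have the largest values together with asp-12.

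Other genes of the acidic compartment, cystatins, calpains and gut or lysosome transcription factors were read from lists. Between the double mutant and daf-2lf edgeR called 0 of the 75 genes on 6 lists, which covered 2 cystatins, 11 lysosome membrane and transport genes, 22 other lysosomal enzymes, 21 proton pump genes, 9 tested calpains and 10 gut or lysosome transcription factors. Over all tested genes 1.62% were called, so a count of 0 lies near that share. At an unadjusted p under 0.05 there were 2 higher and 8 lower, DESeq2 called 2 higher and 2 lower, and limma-voom 4 higher and 9 lower. In skn-1gf against wild type, where 22.6% of all tested genes were higher and 21% lower, 17 of the 21 proton pump genes were higher and 2 lower, by modest amounts, with a list median of 0.57. The largest rise was vha-10 at 0.72 (SE 0.19, edgeR adjusted p = 0.0105) and the largest fall vha-18 at -0.79. Of the 22 other lysosomal enzymes 10 were higher and 1 lower (list median 0.64), led by pcp-2 at 2.57 and with hex-1 lower at -0.64. Among the 11 membrane genes cln-3.3 (2.45), lmp-2 (1.45), cln-3.1 (1.21) and glo-1 (1.03) were higher and ctns-1 (-0.48) lower. Of the transcription factors pqm-1 (1.65) and skn-1 (0.34) were higher, and of the calpains, which are calcium-dependent cysteine proteases of the cytosol, clp-1 (0.69) was higher and clp-6 (-1.69), clp-3 (-1.65), clp-8 (-1.44) and clp-7 (-0.48) were lower. The cystatins, inhibitors of cysteine proteases, were called by edgeR and DESeq2 in none of the 5 comparisons. At an unadjusted p under 0.05 edgeR had 1 lower in the double mutant against daf-2lf and 1 higher in daf-2lf against wild type, and limma-voom called those counts and 1 negative interaction.

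In daf-2lf against wild type, where 29.5% of all tested genes were higher and 22.9% lower, 16 proton pump genes were higher and 1 lower (list median 0.47), led by vha-14 at 0.71 and with vha-18 at -2.64. Of the other lysosomal enzymes 10 were called, all higher, with the lysosomal lipase gene lipl-1 at 3.50. Higher membrane genes were cln-3.3 (2.00), lmp-2 (1.44), glo-1 (1.40), cln-3.1 (0.64), lmp-1 (0.53) and scav-3 (0.46). The transcription factors higher were pqm-1 (1.55), elt-4 (1.38), pha-4 (1.03), hlh-30 (0.86), elt-7 (0.74), skn-1 (0.55) and elt-2 (0.52), where elt-2 and elt-7 encode GATA factors of the intestine and hlh-30 the worm relative of TFEB. The calpain genes clp-1 (0.66) and clp-4 (0.57) were higher, and clp-6 (-5.91) and clp-3 (-5.24) were lower. The clp-8 gene had 0 counts in both genotypes with daf-2lf. The filter kept it only through the genotypes where it is high, so its call as lower is not read. In the double mutant against skn-1gf, where the shares over all tested genes were 13.4% higher and 18.4% lower, the counts were 1 higher and 4 lower in the proton pump, 3 and 2 among the enzymes, 1 and 2 among the membrane genes, 1 and 3 among the calpains and 4 and 0 among the transcription factors. The membrane gene laat-1 (0.51) was higher and cln-3.3 (-1.29) and cln-3.1 (-0.89) were lower, and the transcription factor genes pha-4 (0.99), hlh-30 (0.69), skn-1 (0.56) and nhr-49 (0.41) were higher. Of the calpains clp-7 (0.52) was higher, and clp-3 (-3.80) and clp-6 (-3.57) were lower. The count of 3 lower calpains includes clp-8, with 0 counts in the double mutant, whose call is again not read. The interaction, called positive for 9.91% and negative for 17.7% of all tested genes, was positive for 2 and negative for 13 proton pump genes, 1 and 7 enzymes, 0 and 4 membrane genes, 2 and 1 calpains, and 0 and 1 transcription factors. Those of short lists were cln-3.3 (-3.29), pqm-1 (-2.02), lmp-2 (-1.65), cln-3.1 (-1.53), glo-1 (-1.47), clp-6 (2.35), clp-7 (0.63) and clp-1 (-0.57).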

How the data were processed

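The authors deposited a single file of whole-number gene counts, not normalized, covering 12 libraries. Aligner, counting program, strand use and the rule for multi-mapping reads are not given in the sources used here. The build named in the submitters' processing notes is ce10, whereas the chromosome versions in the table are those of WBcel235, and 45476 of 46936 genes (26 of the 28 protease genes) had the coordinates of a RefSeq gene table of that assembly; the spans of asp-2 and asp-8 differ there. Coordinates are as deposited. No sequences were used.

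Counts were analysed in R 4.3.3 with edgeR 4.0.16. The filterByExpr step (minimum count 10) left 15575 genes, libraries were scaled by TMM, and 1 fit with the 4 genotypes as terms covered all 12 libraries. Contrasts used the quasi-likelihood F test with Benjamini-Hochberg adjustment over all tested genes, and genes under 0.05 are called. Standard errors come from the log2 change and its F statistic, and 95% intervals use the t quantile of the fit. CPM are counts over the TMM-scaled library total, times 1e+06, and levels per kilobase divide them by the deposited gene length. On simulated counts with 200 changed genes, 42% of those changed 2-fold and 95% of those changed 4-fold were recovered for skn-1gf against wild type (15272 genes tested), and 48% and 97% for the double mutant against daf-2lf (15261 genes). Of the calls, 2.14% and 5.23% were false. The changed genes were drawn above a lower limit of mean CPM, and all others had equal means. In the data 43.6% of genes were called in skn-1gf against wild type, so its recovery may not carry over. Each simulated gene had the same spread in all genotypes. For the 21 protease genes with at least 10 counts in every library, the SD was a median 28.5% of the mean in daf-2lf. It was 11.5% in the double mutant, so the recovery between these genotypes may not carry over either.

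Named were, per contrast, up to 5 called rises and 5 called falls of largest size with separate replicates (separation not asked of the interaction), the 5 members highest per kilobase and 10 members of known role; other values are added as counts. Of longer lists the largest called rise and fall are named, of lists of 12 or fewer the called genes. The members and lists were chosen with earlier results of these data known. Alternatives were scaling by relative log expression, no filter or a minimum count of 50, DESeq2 1.42.0, a replicate block, only the groups compared, removal of a length trend, limma 3.58.1 voom with sample quality weights, and leaving out each library.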

Additional observations from a re-analysis of the deposited data

Results flagged for a closer look

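The effect of skn-1gf differed between the daf-2lf and wild-type backgrounds, by the test of the difference itself in the edgeR fit over all genes, for 12 protease genes. Each value is the log2 change in daf-2lf minus that in wild type. It was positive for 4 genes, namely asp-17 at 3.12 (SE 0.50, edgeR adjusted p = 0.0011), cpz-1 at 2.35 (SE 0.29, edgeR adjusted p = 0.000201), cpl-1 at 1.67 (SE 0.25, edgeR adjusted p = 0.000591) and cpr-6 at 1.62 (SE 0.29, edgeR adjusted p = 0.00219). All 4 were lower in skn-1gf than in wild type and were not called between the double mutant and daf-2lf.

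It was negative for 8 genes. The value was -2.57 (SE 0.46, edgeR adjusted p = 0.00197) for asp-8, -1.66 (SE 0.30, edgeR adjusted p = 0.00222) for cpr-3, -1.38 (SE 0.37, edgeR adjusted p = 0.0188) for asp-14 and -1.33 (SE 0.35, edgeR adjusted p = 0.0169) for asp-2. It was -1.21 (SE 0.30, edgeR adjusted p = 0.0128) for asp-12, -1.16 (SE 0.33, edgeR adjusted p = 0.0224) for asp-5, -1.04 (SE 0.27, edgeR adjusted p = 0.0147) for asp-1 and -0.88 (SE 0.27, edgeR adjusted p = 0.0304) for asp-6. Of these, asp-14 rose in both backgrounds, asp-6 was called in neither, and the other 6 rose in the wild-type background and were not called in the daf-2lf background. The calls of asp-6, asp-5 and asp-14 held in 10, 15 and 17 of 19 alternatives. That of asp-14 was lost without wild-type replicate 1, at -1.25 (adjusted p = 0.0536), and without skn-1gf replicate 2, at -1.17 (adjusted p = 0.05004). That of asp-5 was lost without wild-type replicate 1, skn-1gf replicate 2 or double mutant replicate 1 or 2 (-1.15 to -0.996, adjusted p = 0.0511 to 0.0589). That of asp-6 was lost without any 1 wild-type library, skn-1gf replicate 1 or 2, or double mutant replicate 1 or 2 (-0.91 to -0.81, adjusted p = 0.0553 to 0.0761). Without daf-2lf replicate 1 all 12 were called, at 3.33 for asp-17, 2.64 for cpz-1, 1.961 for cpl-1, 1.98 for cpr-6, -2.33 for asp-8, -1.51 for cpr-3, -1.11 for asp-14, -0.91 for asp-2, -0.90 for asp-12, -0.77 for asp-5, -0.72 for asp-1 and -0.54 for asp-6, and cpz-2 was called as well, at -0.67 (adjusted p = 0.0229). Single libraries were not tested for outliers, since groups of 3 are too small for that test.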

How the results depend on the processing

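Between the double mutant and daf-2lf, 4 protease genes passed the threshold, and the number was 2 with only the groups compared, 9 by limma-voom with sample quality weights and 2 to 4 when 1 library was left out. These numbers, and those that follow, include cpr-2 and asp-9 where they were tested. In skn-1gf against wild type (16) and daf-2lf against wild type (16), leaving out 1 library gave 12 to 18 and 14 to 17. In the double mutant against skn-1gf (9) it gave 5 to 10, and limma-voom gave 15. For the interaction (12) it gave 9 to 14, and limma-voom gave 21. Over all genes there were 253 edgeR calls between the double mutant and daf-2lf, 516 by DESeq2, 109 with only the groups compared, 2113 by limma-voom and 139 to 469 with 1 library left out. By limma-voom there were 11743 calls in skn-1gf against wild type (6787 in the edgeR fit), 10101 in the double mutant against skn-1gf (4944) and 9444 for the interaction (4308, with 2786 to 5921 when 1 library was left out).

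Replicate numbers did not pair the libraries: deviations of same-numbered libraries correlated at -0.129 to 0.296, over 0.1 in 2 of 18 pairs, and 6 of 18 correlated best with their own number. With a replicate block, 3 protease genes passed between the double mutant and daf-2lf, 16 in each of skn-1gf and daf-2lf against wild type, 8 in the double mutant against skn-1gf and 11 for the interaction.

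Signs turned for log2 changes below the threshold. Between the double mutant and daf-2lf, limma-voom gave asp-3 at 0.069 and cpz-2 at -0.075, and leaving out 1 library gave -0.34 to 0.057 for asp-1, -0.22 to 0.14 for asp-3, -0.31 to 0.025 for cpl-1, -0.48 to 0.11 for asp-4 and -0.018 to 0.35 for cpz-2, with the turned sign in each without daf-2lf replicate 1. In daf-2lf against wild type, asp-13 was at -0.010 with relative log expression scaling and -0.015 by DESeq2. Leaving out 1 library gave -0.030 to 0.26 for asp-13, -0.45 to 0.084 for cpr-6 and -0.49 to 0.054 for cpr-5 there, and -0.23 to 0.0056 for cpz-2 in the double mutant against skn-1gf. In the interaction cpr-5 was at 0.014 with relative log expression scaling, 0.017 by DESeq2 and 0.55 by limma-voom (adjusted p = 0.0388), and at -0.40 to 0.34 when 1 library was left out, which gave -0.38 to 0.00195 for asp-13. The cause of these turns was not tested. Depth limits cpr-2, asp-9 and the 5 genes below the filter, which had few counts.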

Other observations

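Outside the named families, 20 other protein-coding genes of the table carry the same aspartyl or papain-type protease domains, and 13 of them were tested. Between the double mutant and daf-2lf edgeR called 0 of them, with 1 lower at an unadjusted p under 0.05, and DESeq2 called 0 and limma-voom 1. With 1.62% of all tested genes called there, a count of 0 lies near that share. In skn-1gf against wild type R09F10.1 (log2 0.88) and R07E3.1 (0.40) were higher and Y40H7A.10 (-1.45) and hrg-7 (-0.74) were lower, where 22.6% of all tested genes were higher and 21% lower. In daf-2lf against wild type hrg-7 rose by 1.09, R09F10.1 by 0.58 and Y65B4A.2 by 0.59, while Y40H7A.10 changed by -3.14. W07B8.4 and F21F8.5 were also called, at 1.55 and -3.15, but averaged only 0.415 and 0.336 CPM per kilobase over the 12 libraries. At that level the filter may have kept them only through the genotypes where they are high, so these calls are not read. The shares over all tested genes were 29.5% higher and 22.9% lower there. The most abundant, R07E3.1, averaged 208 CPM per kilobase over the 12 libraries, and hrg-7, whose product acts in heme signalling between tissues, averaged 88.3.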
